A study of Carex littledalei with 18 samples.

Results

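The first 0.5 h at -5 °C was examined in leaves of Kobresia littledalei (Carex littledalei), a sedge of alpine grassland, by setting its 3 libraries against the libraries of the neighbouring times, 0 h and 4 h. Plants collected wild in Tibet had recovered in a nursery bed and then stood in pots at 25 °C for 7 days before the move to a room at -5 °C. The 0.5 h leaves had spent 0.5 h there, the 4 h leaves 4 h, and the 0 h leaves no time. The labels name no mutant line and no added agent in any group, and each time was taken from its own pot. The series holds 18 libraries, 3 at each of 6 times (0, 0.5, 4, 12, 24 and 48 h), of polyadenylated leaf RNA. Replicate 1 of 0 h and replicate 1 of 4 h share the same values in each of 214531 rows, so this column was used once. The values belong to the pool under either label, which left 5 pooled libraries and 17 distinct libraries in all. Time and pot cannot be told apart, nor can cold and the move itself, because no pot was kept warm alongside. Separate plants are not stated for the replicates, so the p-values measure the spread between these samples, which may be technical.

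Plants sense falling temperature within minutes. In Arabidopsis an early wave of transcription factor genes of the CBF/DREB1 family is induced first, and the cold-regulated genes that they bind, such as those for dehydrins and for enzymes of sugar metabolism, follow hours later. Many early transcripts are short-lived and have fallen again while the later ones are still accumulating. A time so soon after transfer is therefore where transient transcripts would be looked for. The rows of the count table are genes of a Trinity assembly, that is, groups of assembled transcripts. The files do not pair these identifiers with gene names, so leaf marker genes and cold pathways could not be looked up, and 4 identifiers are printed.

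The 3 libraries of 0.5 h held 20511162, 29079997 and 26629425 counts, and the pooled libraries held between 18895399 and 29124079. Their TMM factors (edgeR's scaling for library composition) were 1.31, 1.25 and 0.644 at 0.5 h, against 0.748 to 1.21 in the pool. At 0.5 h, 32941 ± 1632 genes were detected at 1 CPM or more (SD, n = 3), against 32648 ± 1207 in the pool (SD, n = 5; exact permutation p = 0.75, two-sided). CPM here means counts per megaread of library, with library sizes corrected by such factors, set over the 17 distinct libraries. The 100 leading genes by level took up 28.8% ± 6.6 of a library at 0.5 h (SD, n = 3) and 31.1% ± 4.4 in the pool (SD, n = 5; exact permutation p = 0.54, two-sided). Neither difference exceeded the spread between libraries. There are only 56 ways to split these libraries into 3 and 5, which limits how small a permutation p can be.

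Whole profiles did not set the 0.5 h libraries apart from their neighbours. Spearman's rank correlation over the 48681 tested genes was 0.844 to 0.883 over the 3 pairs within 0.5 h. It was 0.793 to 0.885 over the 15 pairs of a 0.5 h and a pooled library, and 0.789 to 0.935 over the 10 pairs within the pool. The ranges overlapped. The 0.5 h library most unlike its replicates was replicate 3, whose highest correlation, 0.885, was with 0 h replicate 2. Within the pool, the library carried under both labels had correlations of 0.867 and 0.858 with the 0 h libraries and of 0.789 and 0.793 with the 4 h libraries. Its time was not inferred from these values. These correlations are across genes, which are not independent replicates, and are given as a description.

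**Figure D1:**
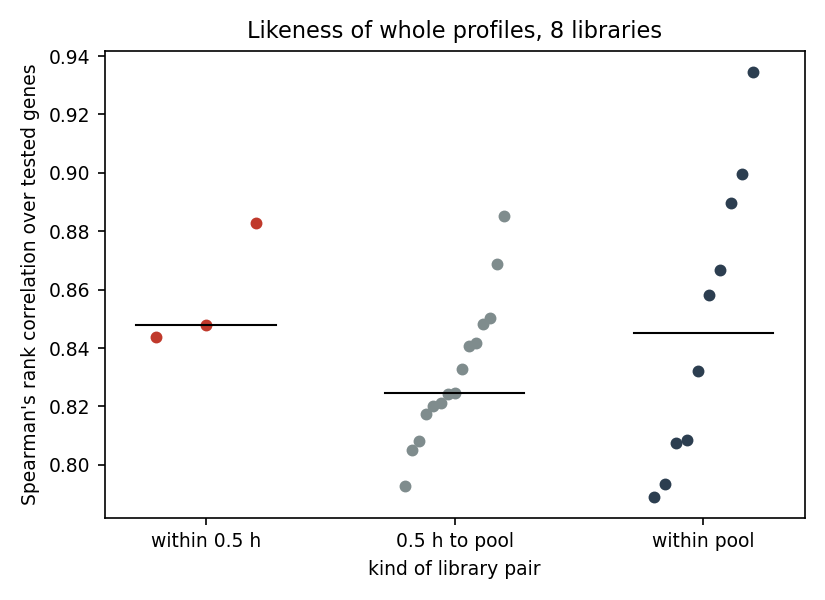
Spearman's rank correlation between libraries over the tested genes (y axis) for the 3 pairs within 0.5 h, the 15 pairs of a 0.5 h and a pooled library, and the 10 pairs within the pool. Points are pairs and bars are medians, and the 3 ranges overlap.

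A small group of transcripts rose at 0.5 h, most of them with few or no reads in the pool. At 0.5 h, 50 genes were higher and 0 were lower than in the pool, of 48681 tested (edgeR's quasi-likelihood F test, Benjamini-Hochberg adjusted p under 0.05). The share called was 0.103%. Taking each gene's mean, the group had a median of 5.83 CPM at 0.5 h, against 0.011 CPM in the pool. The pool value is near the floor, as 27 of the 50 had at most 1 read in every pooled library. In all 50 the lowest 0.5 h library stood above the highest pooled library, by at least 2.34 times where the pool had reads. Such separation was seen in 3.31% of all tested genes, and since the calls rest on the same contrast it is no further support for them. Genes near absence in the pool passed the expression filter only through their 0.5 h reads, so finding them higher is in part fixed by that filter. All 59 tested genes with 0 reads in the pool had reads in all 3 libraries of 0.5 h. In leaf tissue taken whole, more cells of a type and more RNA per cell cannot be told apart.

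**Figure D2:**
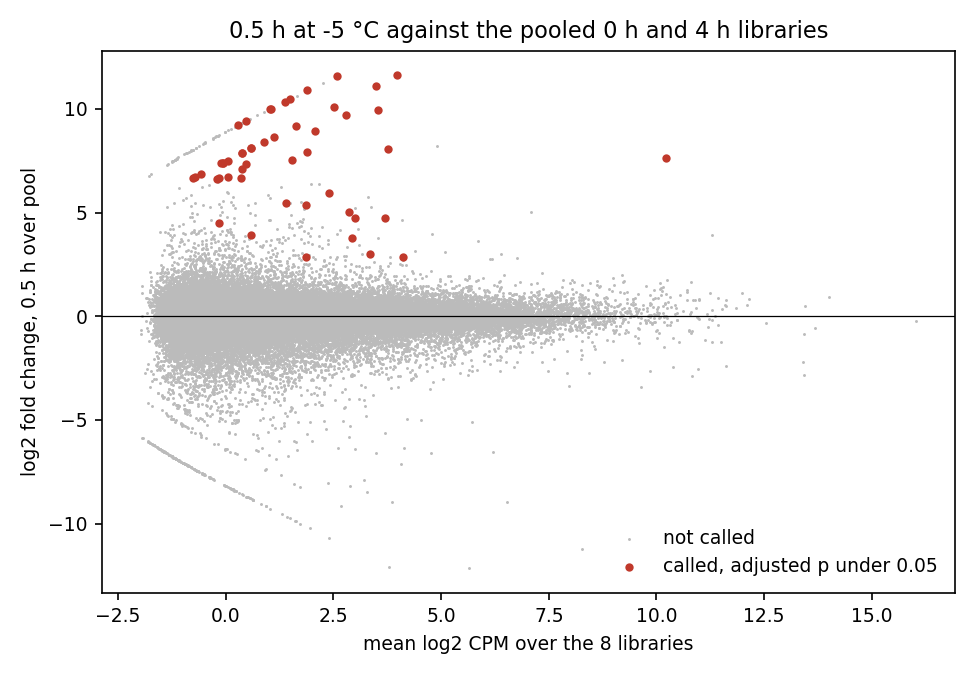
Log2 fold change of 0.5 h over the pool (y axis) against mean log2 CPM over the 8 libraries (x axis) for the 48681 tested genes. The 50 called genes (red) all lie above 0, between log2 fold changes of 2.85 and 11.61, and 1 of them stands far to the right of the others in abundance.

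The most abundant of the 50 was TRINITY_DN211982_c6_g1. It stood at 1003, 3839 and 4263 CPM in the 0.5 h libraries. In the pool the 0 h libraries held 24.1 and 8.86 CPM, the 4 h libraries 17.6 and 10.7 CPM, and the library with both labels 16.3 CPM. The lowest 0.5 h library, replicate 1, was thus far above the highest pooled one, 0 h replicate 2, and the groups did not overlap. Its log2 fold change was 7.61 (SE 0.68, edgeR adjusted p = 0.0045), a 196-fold ratio of the means of 3035 ± 1772 CPM at 0.5 h (SD, n = 3) and 15.5 ± 6 CPM in the pool (SD, n = 5). Each single-library omission kept the call, with adjusted p between 0.0023 and 0.036. It missed the threshold where the pool was cut to the 0 h libraries (log2 fold change 7.53, edgeR adjusted p = 0.35) or to the 4 h libraries (7.74, 0.067).

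On the authors' scale that divides by transcript length, this gene was among the leading transcripts of the leaf at 0.5 h. It ranked 5, 4 and 4 of all 214531 genes in the 0.5 h libraries, against ranks between 704 and 1405 in the pooled libraries. By CPM, without division by length, its ranks were lower, at 47, 8 and 29 at 0.5 h and 6369 to 11846 in the pool. Its scaled values were 6688, 32049 and 32938 at 0.5 h and 72.9 to 192 in the pool. At the later times the means were 26.5 ± 25 CPM (12 h), 26.7 ± 7.8 CPM (24 h) and 15.5 ± 8.1 CPM (48 h), with SD over 3 libraries each. The highest of those 9 libraries, 12 h replicate 2, held 53.7 CPM, so the 0.5 h libraries stood above every other library of the series. No other gene was assembled in its component, the set of assembled genes that share sequence.

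TRINITY_DN200859_c0_g1 was the next by mean log2 CPM over the 8 libraries and one of the smaller rises. It had 13.3, 44.3 and 49.9 CPM at 0.5 h, against 3.45 to 5.68 CPM in the 5 pooled libraries. The groups did not overlap, although 0.5 h replicate 1 was well below its replicates. The log2 fold change was 2.88 (SE 0.42, edgeR adjusted p = 0.042). The call was lost without any one library other than 0.5 h replicate 1, with edgeR adjusted p between 0.081 and 0.26. At 12, 24 and 48 h its means were 3.7, 3.63 and 4.7 CPM, and the 9 later libraries reached 5.96 CPM at most.

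**Figure D3:**
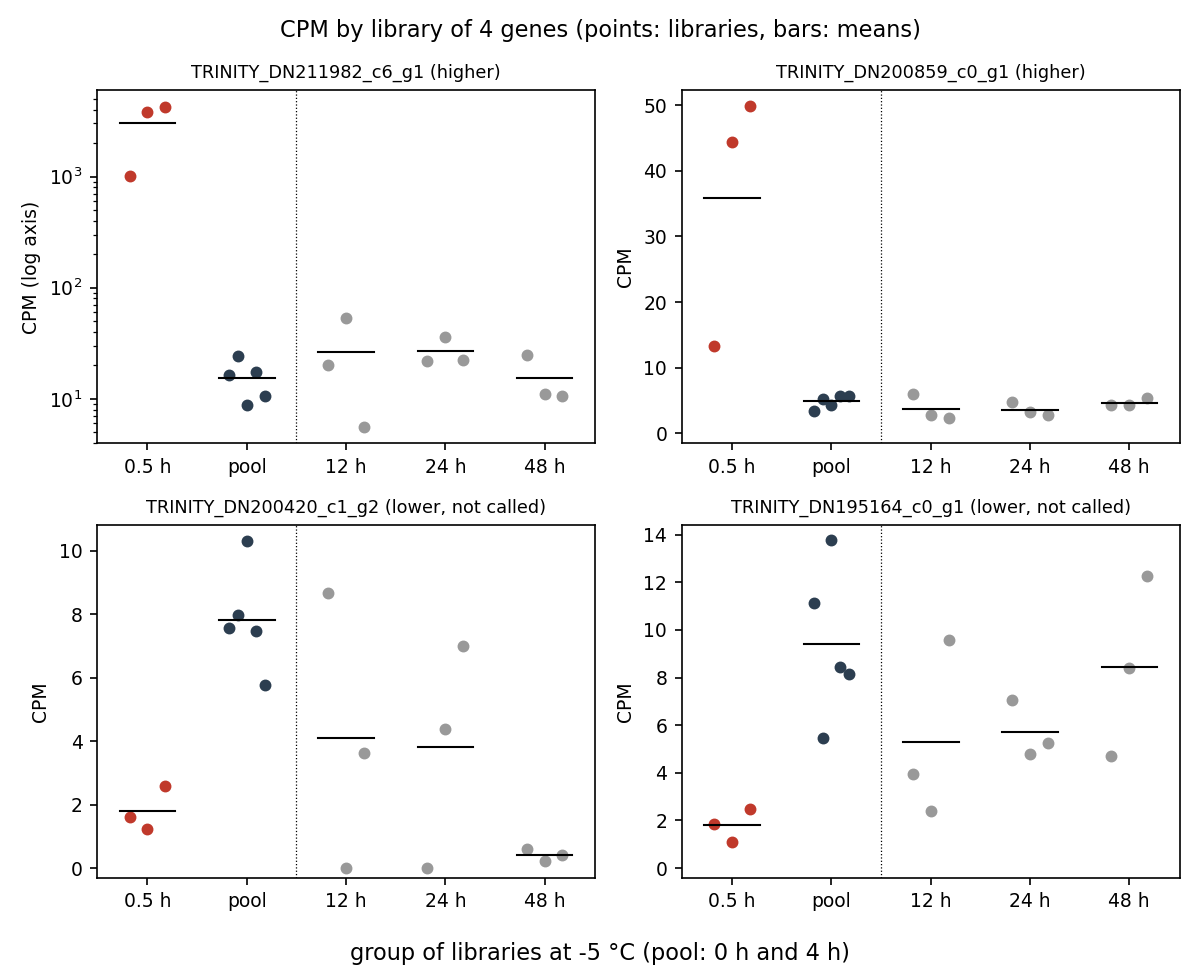
CPM by library (y axes, log scale in the first panel) for the 2 printed genes that rose and the 2 printed genes that were lower without passing the test, in the 0.5 h libraries, the pooled libraries and the 12, 24 and 48 h libraries. Points are libraries and bars are means. In the upper panels every 0.5 h library lies above every other library, and in the lower left panel the 48 h libraries lie below the 0.5 h ones.

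The other called genes are given without identifiers. Read depth in the pool divides the 50 into 3 kinds. The first kind, 16 genes, had over 3 reads in the pool, with a median log2 fold change of 4.90 and a range of 2.85 to 8.04. Some of these had as few as 4 reads over the pool, and their fold changes are not stable. The second kind, 26 genes, had 1 to 3 reads over all 5 pooled libraries, and their fitted fold changes depend on the prior count. The third kind, 8 genes, had 0 reads in the pool. Against a floor of 3 counts over the pool, these 8 were at least 117-fold to at least 616-fold higher at 0.5 h, a bound that covers counting error only. The median fitted log2 fold change of the 50 was 7.51, or 7.38 with the 8 genes at their bounds. The gene with the fewest reads in a 0.5 h library still had 13 there.

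Among the genes with reads in the pool, a transcript that kept a low level at all other times had 5.98, 8.54 and 7.77 CPM at 0.5 h, against 0.633 to 1.6 CPM in the pool. Its log2 fold change was 2.85 (SE 0.40, edgeR adjusted p = 0.037), and it stood at 1.14 to 2.57 CPM in the 9 later libraries. It was the smallest of the 50 rises, and its 0.5 h replicates were close together. A larger one had 21.2, 46.9 and 25.3 CPM at 0.5 h and 0.406 to 2.12 CPM in the pool (log2 fold change 4.73, SE 0.58, edgeR adjusted p = 0.02), and its later means were 0.475, 0.553 and 0.338 CPM at 12, 24 and 48 h. A pair of genes from the same read cluster, but different components, rose side by side. The first had 11, 8.78 and 6.47 CPM at 0.5 h against 0.0738 to 0.345 CPM in the pool, and the second had 9.86, 5.26 and 3.94 CPM against 0 to 0.288 CPM. Both were highest in replicate 1 and lowest in replicate 3 of 0.5 h.

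Among the genes near absence in the pool, one had 5.29, 40 and 40 CPM at 0.5 h. Over the 14 other distinct libraries it had a single read, in 0 h replicate 3. Another had 2.32, 2.22 and 2.14 CPM at 0.5 h and at most 4 reads, or 0.105 CPM, in any other library. Its 3 replicates were nearly equal. The widest spread among replicates was in a gene with 1.85, 63 and 23.6 CPM at 0.5 h, a 34.1-fold range, and at most 0.0738 CPM in the pool. It had 0 reads in all 9 later libraries.

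Replicates of 0.5 h were uneven over the group as a whole. Replicate 1 was the lowest of the 3 for 35 of the 50 genes and replicate 2 the highest for 33. The median CPM of the 50 was 2.96 in replicate 1, 8.66 in replicate 2 and 4.33 in replicate 3. The highest replicate exceeded the lowest by a median of 3.02 times. Together the 50 genes took 0.17%, 0.587% and 0.322% of the counts of tested genes in the 0.5 h libraries, against 0.00242% to 0.00346% in the pooled libraries. Without TRINITY_DN211982_c6_g1 the shares were 0.0334%, 0.088% and 0.0363% at 0.5 h and 0.00115% to 0.00191% in the pool. At 0.5 h, reads of the whole group thus came mainly from 1 transcript. The other 49 together also took a larger share in each 0.5 h library than in any pooled one. Their choice as higher at 0.5 h largely fixes this.

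The count depended on single libraries and on the test. Omitting replicate 1, 2 or 3 of 0.5 h gave 33, 10 or 30 genes (23 higher and 7 lower in the last). Omitting the library with both labels gave 29, 0 h replicate 2 or 3 gave 31 or 12, and 4 h replicate 3 gave 13. Without 4 h replicate 2 the count was 55, of which 35 were among the 50. DESeq2 called 407 genes higher and 403 lower, and all 50 were among the 407. Against the 0 h libraries alone edgeR called 0 of 47751 tested genes, and 2332 of the 47751 had an unadjusted p under 0.05. Against the 4 h libraries alone it called 34 higher and 64 lower of 51869 tested. Of those 34, 13 were among the 50. All 50 kept a positive log2 fold change in every refit of genes that tested them. In each of the 50 the groups do not overlap, which largely fixes this sign, so it is no further support.

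The calls do not mix opposite changes at the 2 neighbouring times. In each of the 50 genes the lowest 0.5 h library lay above both 0 h libraries, both 4 h libraries and the library with both labels. That is the separation from the pool given above, told by time, and is no further support for the calls. Median levels of the group were 0.0195 CPM over the 0 h libraries and 0.0184 CPM over the 4 h libraries (2 each). A fit with 0 h and 4 h as separate groups, set against their mean and without the library of both labels, called 17 genes, all higher, of which 16 were among the 50.

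Levels at later times were read in the 9 libraries of 12, 24 and 48 h, which did not enter the fit. In 38 of the 50 genes, all 9 later libraries lay below the lowest 0.5 h library. These 38 had a median level of 7.07 CPM at 0.5 h and 0.1 CPM over the later libraries. For these genes the 0.5 h level was reached in none of the 14 other distinct libraries. Over all tested genes the 0.5 h libraries stood above the 14 other distinct libraries in 355, or 0.729%, and below them in 167, or 0.343%. The 50 were chosen for high 0.5 h values, so their larger share is in part fixed by the choice. In 9 of the 50 no read was found at 12, 24 or 48 h.

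The other 12 genes returned to their 0.5 h level in at least 1 later library, though not evenly over libraries of a time. At 12 h, 0, 10 and 8 of the 50 were at or above their lowest 0.5 h value in replicates 1, 2 and 3. At 24 h the numbers were 7, 5 and 0, and at 48 h they were 3, 2 and 3. Of the 12, 10 reached the level in at least 2 of the 4 libraries 12 h replicates 2 and 3 and 24 h replicates 1 and 2. The same genes were below it in 12 h replicate 1 and 24 h replicate 3, as were all 50. Median levels of these 12 were 3.46 CPM for 0.5 h and 0.0115 CPM for the pool, then 3.3 CPM for 12 h, 1.67 CPM for 24 h and 0.351 CPM for 48 h. In 9 of the 12 a later library exceeded the highest 0.5 h library.

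An example is the called gene with the largest fitted fold change. It had 15.8, 33 and 72.3 CPM at 0.5 h and 1 read in the whole pool, in the library with both labels. The 12 h libraries held 0, 115 and 14 CPM, the 24 h libraries 107, 31.9 and 0 CPM, and the 48 h libraries 0.158, 0 and 0 CPM. Of the 12 and 24 h libraries, 12 h replicate 2 and 24 h replicate 1 thus lay above the 0.5 h range, 24 h replicate 2 lay within it, 12 h replicate 3 just below it, and the others had no read. A different course was seen in a gene with 1.27, 3.5 and 1.13 CPM at 0.5 h and 2 reads in the pool. It stayed at or below 0.155 CPM in the 12 and 24 h libraries. Its 48 h libraries held 2.65, 4.26 and 2.21 CPM, so all 48 h libraries were within or above the 0.5 h range.

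**Figure D4:**
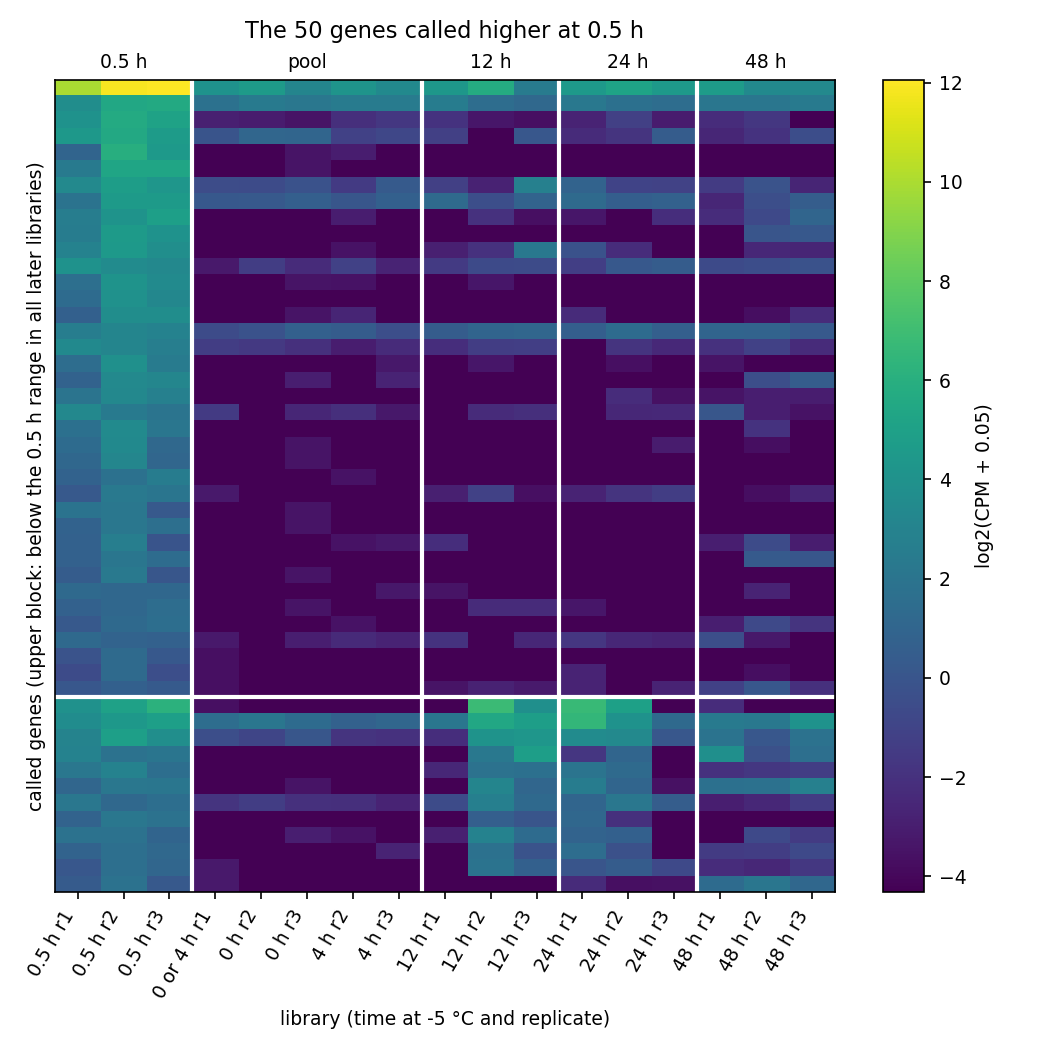
log2(CPM + 0.05) of the 50 called genes (rows) in the 17 distinct libraries (columns), with 0.5 h and the pool on the left and the later times on the right. The upper block holds the 38 genes below the 0.5 h range in all later libraries, and the lower block the 12 that returned, mostly in 12 h replicates 2 and 3 and 24 h replicates 1 and 2.

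Because alleles, copies and fragments of a plant gene can be assembled as separate genes, each called gene was set beside its component. The 50 genes lay in 48 components. Counts summed over each component were higher at 0.5 h for 14 of the 48 (edgeR adjusted p under 0.05, of 23374 components tested, with 0.0642% called higher). Each sum includes its called gene, chosen as higher in these same libraries, so the larger share is in part fixed by the choice. The median log2 fold change of the 48 sums was 2.58 and their range -0.45 to 11.61. In 10 components the sum differed by less than 2-fold, and in 3 of these it was below the pool without being called.

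The components were then divided by whether they held other tested genes. In 17 components no other gene was tested, and 10 of these sums were called. In the 31 components that held other tested genes, 4 sums were called. These components held 66 other tested genes, of which 8, or 12.1%, were higher at 0.5 h at an unadjusted p under 0.05 and 0 were lower. Over all tested genes 3.84% were higher and 4.04% lower at that level. Genes of a component can share reads, so these counts are a description. In these 31 components the called genes carried a median of 49.3% of the CPM of all tested genes of the component at 0.5 h, with a range of 3.91% to 96.5%.

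**Figure D5:**
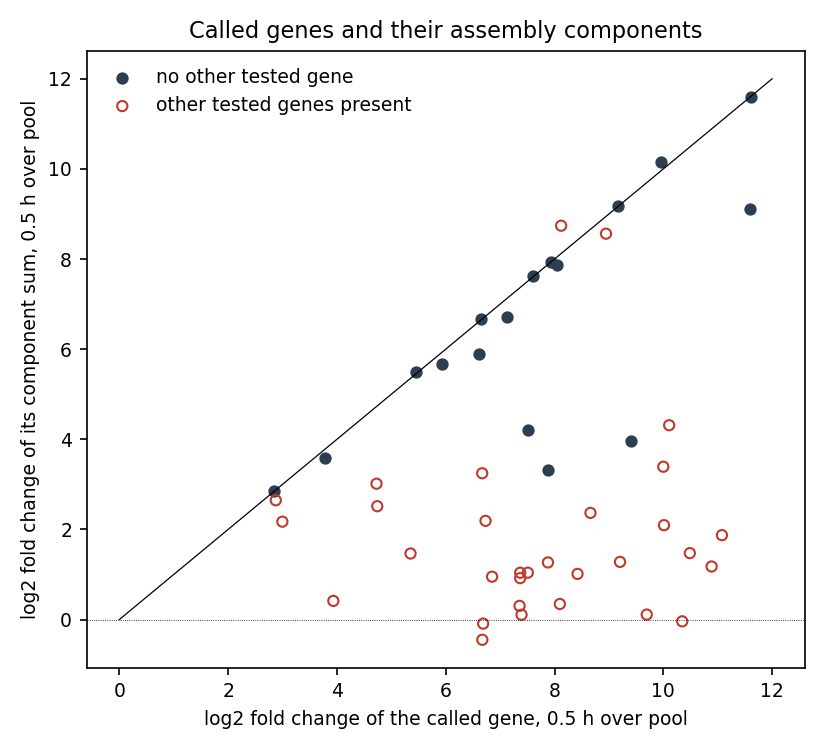
Log2 fold change of the component sum (y axis) against that of its called gene (x axis, the larger where a component has 2), both 0.5 h over pool, with the line of equality. Most components with no other tested gene (filled) lie near the line, and most with other tested genes (open) lie below it, down to 3 just under 0.

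No gene passed the test for a lower level at 0.5 h. Of the tested genes, 1967 were lower at an unadjusted p under 0.05, or 4.04%, beside 1869 higher, or 3.84%. Every 0.5 h library lay below every pooled one in 1270 genes, or 2.61%. The smallest adjusted p among lower genes was 0.083. Besides edgeR's 0, DESeq2 called 403 lower genes and limma, on the scaled values, called 16.

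The lower genes of at least 5 CPM with the smallest p and no overlap were TRINITY_DN200420_c1_g2 and TRINITY_DN195164_c0_g1. TRINITY_DN200420_c1_g2 had 1.6, 1.23 and 2.59 CPM at 0.5 h and 5.77 to 10.3 CPM in the pool, which gives -2.12 on the log2 scale (SE 0.38, edgeR adjusted p = 0.1). Its later values ran from 0 to 8.68 CPM, with all 48 h libraries, at 0.235 to 0.594 CPM, below the 0.5 h ones. TRINITY_DN195164_c0_g1 had 1.85, 1.09 and 2.48 CPM at 0.5 h and 5.46 to 13.8 CPM in the pool, which gives -2.39 on the log2 scale (SE 0.44, edgeR adjusted p = 0.11). It stood at 2.39 to 12.2 CPM in the later libraries, so that only 12 h replicate 2 reached down into the 0.5 h range. Both genes were called lower by DESeq2, with adjusted p of 2.2e-05 for TRINITY_DN200420_c1_g2 and 3.5e-05 for TRINITY_DN195164_c0_g1. In edgeR without a filter the adjusted p were 0.011 and 0.0015 in the same order, and with both copies of the identical column 0.045 and 0.047. The fit with both copies counts 1 library as 2 replicates, so its p-values do not measure the spread between distinct libraries. Limma on the scaled values with a pseudocount of 1 called TRINITY_DN200420_c1_g2 (adjusted p = 0.03) and not TRINITY_DN195164_c0_g1 (adjusted p = 0.081). Over all alternatives the adjusted p reached 0.68 for TRINITY_DN200420_c1_g2 and 0.55 for TRINITY_DN195164_c0_g1, and both kept a negative log2 fold change in each. Both were chosen for no overlap between the groups, which largely fixes this sign.

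Presence and absence were also counted without a test. With 0 counts in all 5 pooled libraries and at least 10 in each 0.5 h library, 69 of 214531 assembled genes were on at 0.5 h. Of the 69, 56 were among the 48681 tested genes and 8 among the 50. Their median mean level was 1.52 CPM and the highest 15.2 CPM. Of the 69, 27 also had 0 counts in all 9 later libraries and 28 had at least 10 in some later library. The opposite pattern, 0 counts in all 0.5 h libraries and at least 10 in each of the 5 pooled ones, was met by 0 genes. The 2 patterns ask for different numbers of libraries, so their counts are not compared. Omitting 0.5 h replicate 3 gave 158 and 19, and omitting 4 h replicate 2 gave 105 of the first kind. The second kind numbered 3 when 0.5 h replicate 1 was omitted, 4 when 0 h replicate 2 was, and 1 when 0.5 h replicate 2, 0 h replicate 3 or 4 h replicate 3 was. Genes with reads in the pool and none at 0.5 h did exist. Of 168 tested genes with 0 reads at 0.5 h, 12 had reads in all 5 pooled libraries.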

How the data were processed

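Leaf polyadenylated RNA was sequenced on the BGI platform, per the labels' protocols. Trimmomatic 0.36 and FastQC are listed, per the submitters' processing notes. An aligner, a counter or a build is not given in the sources consulted. The authors deposited estimated counts (expected counts per assembled gene, unscaled) and a signal table scaled for length and by TMM, per its name; its base unit is unstated.

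Columns were matched by sample title. Estimated counts were rounded. In R 4.3.3, edgeR 4.0.16 (filterByExpr on the 2 groups, TMM, quasi-likelihood F test, no covariate, Benjamini-Hochberg adjustment over 48681 genes of 214531) compared 3 libraries of 0.5 h with 5 pooled ones. Between-library variation (edgeR's common coefficient) was 62.6%; residual degrees of freedom were 6. The procedure was tested on simulated data. Printed CPM use TMM factors set over the 17 distinct libraries. An SE is the absolute log2 fold change divided by the square root of F. The printed identifiers are the 2 called genes of highest abundance per direction without overlap between groups. Places left empty went to the smallest unadjusted p at 5 CPM or more.

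Alternatives used DESeq2 1.42.0, limma 3.58.1 on log2(value + 1), other filters and scalings, other poolings, component sums and omission of each library. The comparison, its members and rules were chosen with earlier results of these data known.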

Additional observations from a re-analysis of the deposited data

Results flagged for a closer look

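Signal outside the comparison was found in the libraries of 12, 24 and 48 h, which the fit did not use. There, 12 of the 50 called genes stood at or above their lowest 0.5 h value in at least 1 of 9 libraries, while 0 did so in the pool, against which they were called. No value of the 4 printed genes, of the number of genes detected or of the share of the 100 most abundant genes stood apart among the 5 pooled libraries by Dixon's criterion.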

How the results depend on the processing

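The count of 50 genes (50 higher, 0 lower) was 50 with RLE size factors or robust shrinkage and 55 with library size alone. It was 41 with a filter of 1 CPM in 3 libraries, and 40 with a 2-fold minimum or with all 17 distinct libraries fitted. In each of these 0 were lower. Similar counts did not always mean the same genes. Of the 50, 46 were called with library size alone and 41 with the 1 CPM filter. With the 2-fold minimum 40 of them were called, and with all 17 libraries 29. DESeq2 called 810 (407 higher, 403 lower) and gave no adjusted p for 356 of the 48681 genes. Limma on the scaled table called 170 (154 higher, 16 lower) with a pseudocount of 1 and 146 (128 and 18) with 0.1. The genes it called higher held 41 and 44 of the 50, in the same order. No filter gave 2297 (1183 and 1114) of 156617 tested, an adjusted p under 0.01 gave 14, and the mean of separate 0 h and 4 h groups 17. The 0 h libraries only gave 0, and the 4 h libraries only 98 (34 and 64). Of those 34, 13 were among the 50. Both copies of the identical column gave 113 (106 and 7), and component sums 15. The fit with both copies counts 1 library as 2 replicates, so its count is not a valid alternative to the 50. The cause of the other differences in count was not tested. Leaving out each library in turn gave 10 to 55 genes, 10 to 55 higher and 0 to 7 lower. With the replicate number as a block, edgeR called 19 genes, all higher, 18 of them among the 50. Same-numbered libraries did not deviate together (correlations from -0.329 to -0.0822), so the numbers were not taken as pairs.

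The 69 genes on at 0.5 h were 154 at a minimum of 5 counts and 25 at 20, and the 0 genes off were 5 at a minimum of 5 counts. Without each library in turn the first ran from 71 to 158 and the second from 0 to 19. The difference in genes detected (0.5 h minus pool, 293) ran from -552 to 1077, and that in the share of the 100 most abundant genes (-2.38 percentage points) from -6.07 to 0.217, when single libraries were left out. The 12 returning genes were 39 when any value above the highest pooled one was counted, a setting added after the data were seen. Genes under a few reads per library in the pool have no stable fold, and depth sets that limit.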

Other observations

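Among the 100 most abundant tested genes of the 8 libraries, the median log2 fold change was 0.17 and 1 gene was called, TRINITY_DN211982_c6_g1. Its rank of 71 by mean CPM over the 8 rests on the 0.5 h values, since it ranked 6369 to 11846 in the pooled libraries. In 2 of the 100 the 0.5 h libraries stood above all pooled ones and in 0 below, beside 3.31% and 2.61% of all tested genes. The 50 called genes had a median of mean log2 CPM of 1.25, beside 1.32 over all tested genes. These means include the 0.5 h libraries, for which the 50 were chosen as high. The smallest adjusted p among genes that were higher but not called was 0.053, in edgeR's quasi-likelihood test.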
